A study of Macaca mulatta with 35 samples.

Results

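The 11 cumulus cell libraries of a rhesus monkey series of 35 libraries were compared across the growth of the antral follicle. They were taken by their labelled cell type, and comprised 3 libraries from small, 4 from medium and 4 from large follicles. The series also holds 12 libraries of granulosa cells and 12 of oocytes, from the same follicle sizes. Ovaries came from adult females that went to necropsy for causes unrelated to reproduction, and the cells were dissected from single antral follicles. PicoPure columns yielded the RNA, and the Ovation RNA-Seq System v2 amplified it, so counts are not independent molecules and every floor of counts given here covers counting error only. The labels give the size classes without diameters and tie no library to an animal. All p-values therefore rest on the spread between these libraries, part of which may be technical.

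Cumulus cells are the granulosa-lineage cells that stay around the oocyte once the fluid-filled antrum has formed, while mural granulosa cells line the follicle wall. Gap junctions at processes that cross the zona pellucida couple them to the oocyte, and they supply it with metabolites and with the cyclic GMP that helps to hold it in meiotic arrest. In large follicles the ovulatory surge of luteinizing hormone makes them lay down a hyaluronan matrix and expand. The question of the comparison is how their transcripts change while the antral follicle grows.

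The tables list 49537 Ensembl transcript IDs without gene names, and all results are therefore given per transcript. Total estimated counts ran from 25942222 to 31971358 per cumulus library. Across 20510 transcripts, 11 of 11 cumulus libraries lay closest to the mean of the other cumulus libraries (Pearson r of log2 TPM with a pseudocount of 1, 0.873 to 0.956). The same correlation was 0.783 to 0.912 with the granulosa mean and 0.229 to 0.55 with the oocyte mean, and each library thus went with its label. Of all transcripts, 18558 (37.5%) reached 10 counts in every cumulus library and 6392 (12.9%) had 0 counts in all of them. A level of at least 1 TPM (a deposited level scaled for transcript length and library total) in every library was met by 14514 transcripts in small, 13290 in medium and 13760 in large follicles, and by 11298 in all 11 libraries. In such bulk libraries a smaller share of cells of a type and less RNA per cell cannot be told apart.

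Transcripts with a slope across small, medium and large follicles were sought by coding size as 1, 2 and 3 and testing the log2 change per size step with edgeR's quasi-likelihood test over the 31869 transcripts that passed the filter on low counts. None passed an adjusted p of 0.05 in either direction (0 of 31869, 0%), and the lowest adjusted p of edgeR was 0.22. At an unadjusted p under 0.05 edgeR gave 901 transcripts (2.83%), 545 with a positive slope (1.71%) and 356 with a negative one (1.12%). DESeq2 passed 49 of 30086 (0.163%) at an adjusted p under 0.05, 16 with a positive slope (0.0532%) and 33 with a negative one (0.11%), and gave 1671 (5.34%) at an unadjusted p under 0.05. limma with sample weights passed 0 and gave 1769 (5.55%) at an unadjusted p under 0.05. Of the 33 from DESeq2 with a negative slope, 28 (84.8%) had 3 or more libraries at 0 counts, and of the 16 with a positive slope 4 (25%), against 18.8% of all tested transcripts. By edgeR, none of the transcripts described next passed for a trend, and they are given by their levels.

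Before the single transcripts, the precision of the slopes says what size of change these libraries could show. The median standard error of a slope was 0.33 log2 units per size step, and the 5th and 95th percentiles of the slopes themselves were -0.75 and 0.88. For 16566 transcripts (52%) the 95% interval of the slope lay within a 2-fold change per step, and for 5525 (17.3%) it lay within a 2-fold change over the whole range from small to large. Precision rose with the level up to 100 TPM, but not above it. At 100 TPM and above the median standard error was 0.19, against 0.17 between 10 and 100 TPM. In that top band 33.5% of intervals lay within 2-fold from small to large. Below 1 TPM the median standard error was 0.77 and 14.5% of intervals lay within 2-fold per step, against 73% between 1 and 10 TPM and 91.8% between 10 and 100 TPM. The 100 most abundant transcripts held 82.1% of TPM, and their slopes ran from -0.37 to 0.42. Of these 100, 0 had an unadjusted edgeR p under 0.05 (lowest 0.13), 88 had an interval within 2-fold per step and 22 within 2-fold from small to large. At the abundant end of the cumulus transcriptome, a change of more than 2-fold per size step was thus outside the interval of most transcripts, and a 2-fold change over the whole range was outside it for 22 of these 100 and for 47.6% of transcripts between 10 and 100 TPM.

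**Figure D1:**
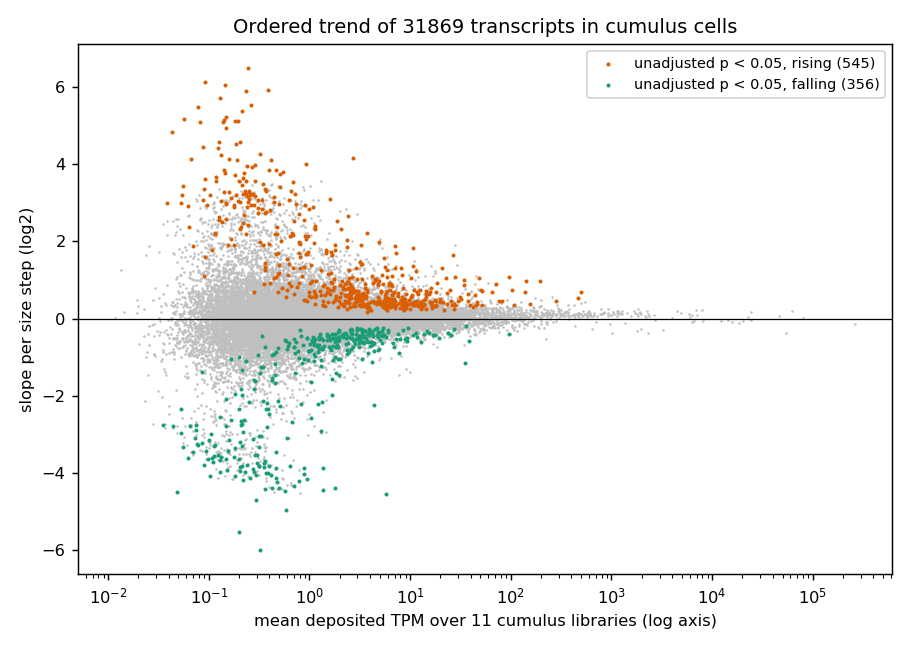
Slope of the ordered trend (log2 change per size step, vertical axis) against the mean deposited TPM over the 11 cumulus libraries (horizontal log axis), one point for each of 31869 tested transcripts. Orange and green points have an unadjusted edgeR p under 0.05 with a positive (545) or negative (356) slope, and none passes after adjustment. At 10 TPM and above no slope exceeds 1.89 or lies below -1.15.

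Most transcripts with an unadjusted p under 0.05 had counts in every library, as did most transcripts tested. These were 383 of the 545 with a positive slope (70.3%) and 232 of the 356 with a negative one (65.2%), against 21454 of all 31869 (67.3%). All small libraries were at 0 counts for 96 of the 545, against 516 of all tested transcripts, and all large libraries for 79 of the 356, against 227 of all. Slopes of more than 1 log2 unit per step were found in 225 of the positive and 153 of the negative set, but in 63 and 29 of those with counts in every library. Over all tested transcripts such slopes, in either direction, numbered 2297 of 31869, and 170 of the 21454 with counts in every library. Both sets were chosen by the p of the slope, which favours steep slopes. The median transcript length was 2682 bases in the positive set and 3005.5 bases in the negative set, against 2534 bases over all tested transcripts.

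At higher levels the slopes leaned one way. Among the 3277 transcripts with a mean of 10 TPM or more, 102 had an unadjusted edgeR p under 0.05 with a positive slope and 19 with a negative one. The group means were in rising order for 921 of these 3277 and in falling order for 193, against 6087 and 4652 over all 31869. Their median slope was 0.069 log2 units per step, against -0.009 over all tested transcripts, and with DESeq2-type size factors in edgeR the values were 0.078 and 0. The first median was 0.022 without small replicate 2 and 0.14 without small replicate 1. The counts depended on single libraries too. Without small replicate 2 they were 41 positive and 19 negative, without medium replicate 3 they were 155 and 18, without small replicate 3 they were 63 and 16, and without large replicate 1 they were 67 and 11. Without small replicate 1 they were 144 and 39, without medium replicate 1 they were 131 and 30, and without large replicate 2 they were 108 and 38. No one of these transcripts passed after adjustment.

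The libraries also differed in their composition. The most abundant transcript, 836 bases long, held 19.4%, 20.3% and 16.3% of counts in the small libraries, 20.2%, 14.9%, 17.2% and 18.6% in the medium ones, and 14%, 13.4%, 18.9% and 12.9% in the large ones. Of the large libraries, 3 lay below all others and large replicate 3 lay among the small and medium ones. The slope was -1.99 percentage points per size step (exact permutation test over 11550 assignments, two-sided, p = 0.0576, adjusted p = 0.346 over 6 library measures, smallest possible p 8.66e-05). It was -2.63 points with an exact permutation p of 0.0157 without large replicate 3, and -2.6 points with p = 0.0295 without small replicate 3. The part of this share in the slopes of the other transcripts was not tested.

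Another measure was the share of counts from 1182 transcripts that are predominant in oocytes, with at least 10 counts in every oocyte library and a median in granulosa cells at most 1/100 of that in oocytes. This share was 0.353%, 0.28% and 0.0624% in the small, 0.0436%, 0.403%, 0.0493% and 0.0535% in the medium, and 0.0644%, 0.0583%, 0.469% and 0.0567% in the large cumulus libraries. Small replicates 1 and 2, medium replicate 2 and large replicate 3 were thus at 0.28% or more and the other 7 libraries at 0.0644% or less, against 3.67% to 9.62% in oocytes. High libraries occurred at every size and the slope was -0.0316 points per step (exact permutation p = 0.645, adjusted p = 0.772). Without small replicate 1 that slope was -0.000319 points, and without large replicate 3 it was -0.0859. Without these 4 libraries edgeR again passed 0 transcripts for the trend, with 45 positive and 17 negative slopes at an unadjusted p under 0.05 among those of 10 TPM or more, but only 1 small library was then left.

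**Figure D2:**
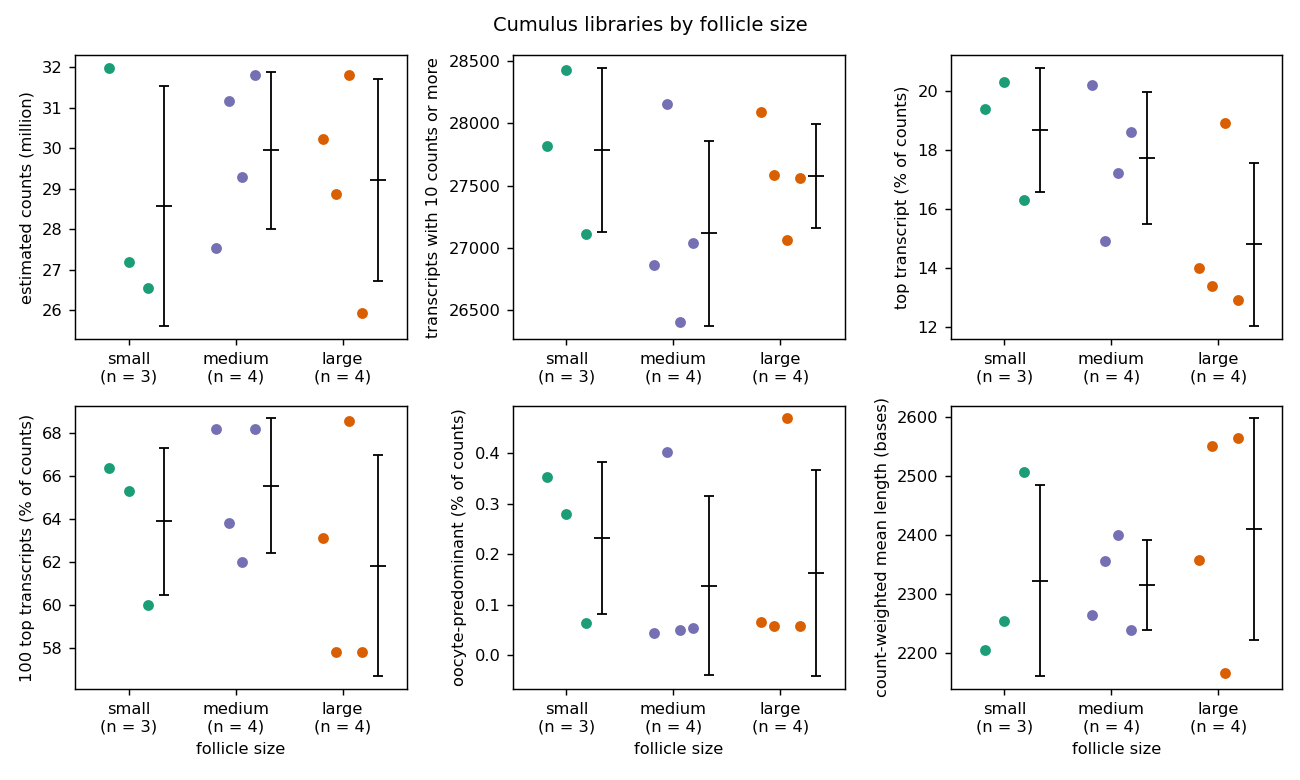
The 6 library measures of the 11 cumulus libraries by follicle size: total estimated counts, transcripts with 10 or more counts, share of the top transcript, share of the 100 top transcripts, share of oocyte-predominant transcripts (each share in % of counts) and count-weighted mean length in bases. Points are libraries and bars are mean ± SD; the oocyte-predominant share splits the libraries at every size, with 4 libraries at 0.28% or more.

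The other 4 library measures moved little with size beside their spread. Transcripts with at least 10 counts numbered 27800 ± 659 in the 3 small libraries (mean ± SD), 27100 ± 745 in the 4 medium and 27600 ± 421 in the 4 large ones (exact permutation test, p = 0.769). The 100 top transcripts were a fixed set, ranked by their mean share over the cumulus libraries and summed in every library. They held 63.9% ± 3.46, 65.6% ± 3.13 and 61.8% ± 5.14 of counts in small, medium and large libraries (exact permutation p = 0.459). The adjusted p of total counts, detected transcripts, this share and the mean length was 0.772 in each case. The spread between libraries of one size was widest in medium follicles. Over the 3277 transcripts of 10 TPM or more, the median SD of log2 levels was 0.531 in medium, against 0.358 in small and 0.39 in large follicles.

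The transcript with the smallest p for a positive slope was ENSMMUT00000015746.4, 8700 bases long. Its deposited TPM was under 0.001 in all 3 small libraries. In medium libraries it was under 0.001, under 0.001, 0.00866 and 0.00176 TPM, and in large libraries it was 0.438, 0.699, 0.21 and 0.0531 TPM. Every large library lay above every small and medium library, while small and medium libraries were all at or near 0. The libraries summed to 0, 3 and 338 rounded counts in small, medium and large follicles, so the mean of large libraries was at least 82.8-fold higher than a floor of 3 counts summed over the small libraries. The slope was 5.73 ± 0.75 (SE) log2 units per step (edgeR unadjusted p = 6.9e-06, edgeR adjusted p = 0.22), and DESeq2 gave an adjusted p of 7.56e-05. A fitted slope or contrast of a transcript with a whole group at 0 depends on the small count added in the fit and is no bound on the change.

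ENSMMUT00000088801.1, 3712 bases long, came next among positive slopes. It was under 0.001 TPM in the 3 small libraries and in 3 of the 4 medium ones, and at 0.0278 TPM in medium replicate 4. The large libraries held 0.308, 0.158, 1.11 and 0.772 TPM, all above every other cumulus library. The mean of the large libraries was at least 64.1-fold higher than the floor of 3 counts summed over the small libraries, and the slope was 5.37 ± 0.85 (SE; edgeR adjusted p = 0.721, DESeq2 adjusted p = 0.00628). For both transcripts the levels differed between medium and large libraries, and medium lay next to small. Their estimated counts were whole numbers in only 2 and 3 of 11 libraries. How far their values near 0 reflect the division of reads among similar transcripts was not tested.

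Among negative slopes, ENSMMUT00000094479.1, 3239 bases long, held 1.55, 0.895 and 0.599 TPM in small libraries. It was at 0.104, 0, 0 and 0.0602 TPM in medium libraries and at 0 TPM in all 4 large ones. The small libraries lay above all others, and medium and large libraries overlapped at 0. The summed counts were 281, 15 and 0, so that the small mean was at least 127-fold higher than a floor of 3 counts summed over the large libraries, with a slope of -4.70 ± 0.78 (SE; edgeR adjusted p = 0.739, DESeq2 adjusted p = 0.00389). In oocytes the same transcript had a median of 5.39 TPM and was at 1.53 TPM or more in all but 1 library, and small replicates 1 and 2 of the cumulus libraries, with 1.55 and 0.895 TPM, also had high shares of oocyte-predominant transcripts. Small replicate 3, with 0.599 TPM, had a low share, and medium replicate 2 and large replicate 3, with high shares, held none of it. The part of oocyte RNA in its cumulus levels was not tested further. Its estimated counts were whole in 6 of 11 libraries, all of them at 0 TPM. The division of reads among similar transcripts was not tested.

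ENSMMUT00000097921.1, 1686 bases long, was the only one of these 4 with counts in every library, and its estimated counts were whole numbers in all 11. It held 14.3, 14.3 and 14 TPM in small libraries, 5.32, 5.15, 9.53 and 6.37 TPM in medium libraries, and 2.12, 5.68, 4.42 and 4.97 TPM in large libraries. The small libraries lay above all others with little spread (14.2 ± 0.204 TPM, SD, n = 3), and medium (6.59 ± 2.03, n = 4) and large libraries (4.3 ± 1.54, n = 4) overlapped. Its slope was -0.89 ± 0.17 (SE) log2 units per step, with a 95% interval of -1.26 to -0.51, yet the edgeR adjusted p was 1 (unadjusted p = 0.000243) and that of DESeq2 was 0.00628.

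**Figure D3:**
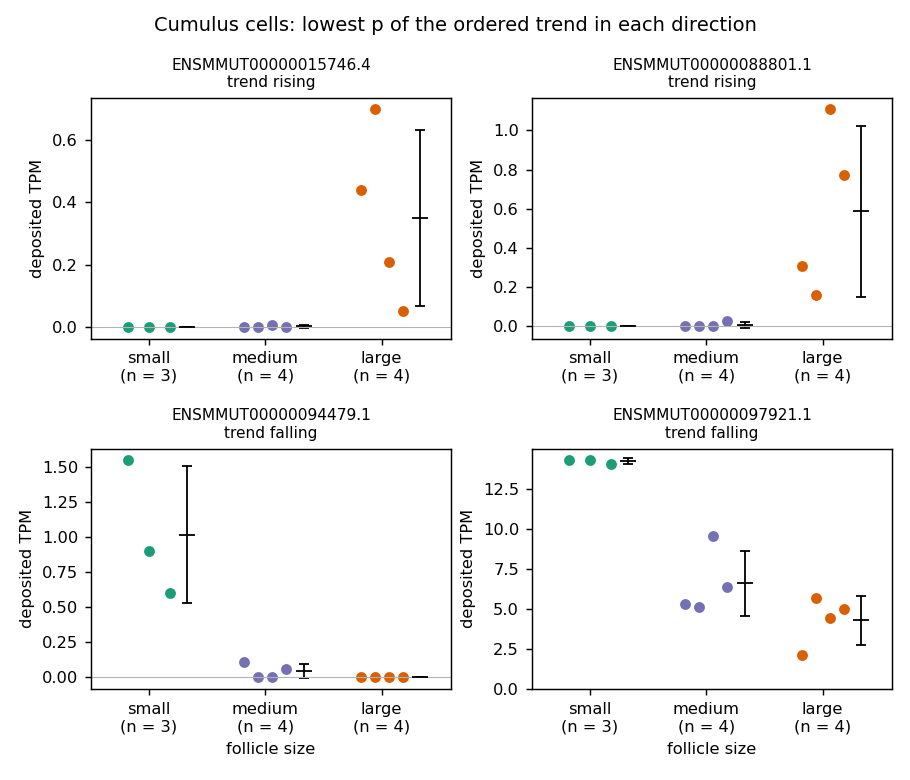
Deposited TPM of the 2 transcripts of smallest p for a positive slope (top) and for a negative slope (bottom) in small, medium and large cumulus libraries. Points are libraries and bars are mean ± SD; only ENSMMUT00000097921.1 was above 1 TPM in every library, at 14 to 14.3 TPM in small follicles and 2.12 to 9.53 TPM in the others.

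A full order of the libraries, with every small library below every medium one and every medium one below every large one, is a stricter description of a steady change. On normalised read counts scaled to the library total (CPM) it held for 1 transcript in rising order (0.00314% of 31869) and for 2 in falling order (0.00628%). Of the 11550 assignments of the libraries to sizes, 1 gives the full order in a given direction, a fraction of 8.66e-05. Both shares seen were below that fraction. These 3 transcripts are named here after their values were seen. ENSMMUT00000031703.4, 4136 bases long, held 37, 26.1 and 33.7 CPM in small, 39.5, 41.2, 38.5 and 42 CPM in medium, and 51.6, 70.5, 42.4 and 44.5 CPM in large libraries. The order was narrow, with 42 against 42.4 CPM at the boundary of medium and large, and on the TPM scale large replicate 3, at 8.64 TPM, fell among the small libraries. On TPM 1 other transcript, not named here, was in full rising order (0.00314% of 31869). For ENSMMUT00000031703.4 the values of the fit follow. Its slope was 0.35 ± 0.1 (SE; edgeR unadjusted p = 0.0057, adjusted p = 1).

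ENSMMUT00000103823.1, 6559 bases long, was ordered downwards on both scales. Small libraries held 3.94, 5.89 and 4.25 TPM, medium libraries 3.03, 3.02, 2.87 and 2.67 TPM, and large libraries 2.06, 2.03, under 0.001 and 0.15 TPM. The medium libraries were close together and the large ones split into a pair near 2 TPM and a pair at or near 0. With that spread the slope was -1.16 ± 0.58 (SE; edgeR unadjusted p = 0.0701, adjusted p = 1).

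ENSMMUT00000018506.4, 2662 bases long, had whole counts in all 11 libraries. It stood at 0.817, 0.962 and 0.991 TPM in small, 0.673, 0.605, 0.707 and 0.479 TPM in medium, and 0.571, 0.425, 0.163 and 0.309 TPM in large libraries. Small libraries lay above all others, and on TPM 1 large library passed the lowest medium one. The slope was -0.71 ± 0.26 (SE; edgeR unadjusted p = 0.0175, adjusted p = 1). Without the medium group in the order, every large library lay above every small one for 1052 transcripts (3.3%) and below every small one for 816 (2.56%) on CPM, and for 1264 (3.97%) and 497 (1.56%) on TPM.

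Some more abundant transcripts had positive or negative slopes with counts in every library. Of the 325 transcripts of 100 TPM or more, 9 (2.77%) had an unadjusted edgeR p under 0.05, a share near the 2.83% over all transcripts tested. All 9 had a positive slope, from 0.36 to 0.98 log2 units per step, with mean levels of 102 to 500 TPM. The most abundant of them, 874 bases long, held 365, 322 and 273 TPM in small, 167, 383, 485 and 202 TPM in medium, and 2030, 366, 429 and 481 TPM in large libraries. Large replicate 1 alone stood far above the rest, and the slope of 0.69 (edgeR adjusted p = 1) became 0.18 with an unadjusted p of 0.39 without it. The most abundant one with a negative slope, 2284 bases long, held 101, 148 and 188 TPM in small, 51.8, 68.3, 85.7 and 77.1 TPM in medium, and 66.8, 63.6, 83.8 and 117 TPM in large libraries. Here the medium and large libraries overlapped, and large replicate 4 also passed the lowest small library (slope -0.39 ± 0.16 SE, edgeR adjusted p = 1).

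Transcripts that peak or dip in medium follicles, which a straight line misses, were tested as medium against the mean of small and large on the log2 scale. With edgeR 0 of 31869 passed an adjusted p of 0.05 (0%), with a lowest adjusted p of 0.433. At an unadjusted p under 0.05, edgeR gave 1142 transcripts (3.58%), 610 with medium higher (1.91%) and 532 with medium lower (1.67%). DESeq2 passed 157 of 31407 (0.5%) at an adjusted p under 0.05, 81 higher (0.258%) and 76 lower (0.242%), with 1629 (5.19%) at an unadjusted p under 0.05, while limma passed 0 at that level and gave 1119 (3.51%) at an unadjusted p under 0.05. This contrast also responds to transcripts that are absent at 1 end of the size range. Of the 610 and 532, 42.3% and 47% had 3 or more libraries at 0 counts, against 18.8% of all tested transcripts. These shares do not say at which size the libraries at 0 were. A narrower count, added after the data were seen, asked that medium differ from small and from large separately at an unadjusted edgeR p under 0.05. It was met by 38 transcripts with medium above both (0.119%) and by 222 with medium below both (0.697%). Of these, 16 of the 38 (42.1%) and 151 of the 222 (68%) had 3 or more libraries at 0.

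The 2 transcripts of smallest p for medium higher were each at or near 0 at 1 end of the size range. ENSMMUT00000095023.1, 1017 bases long, held 5.16, 9.82 and 19.9 TPM in small and 4.59, 4.62, 10.3 and 8.92 TPM in medium libraries, and in large libraries 0.0127 TPM in replicate 1 and under 0.001 TPM in the other 3. Small and medium libraries overlapped and all lay above the large ones, and the small mean was at least 362-fold higher than a floor of 3 counts summed over the large libraries. The contrast was 4.98 ± 0.58 (SE; edgeR adjusted p = 0.433, DESeq2 adjusted p = 2.23e-07), and medium minus small alone was -0.55 (edgeR unadjusted p = 0.35). DESeq2 also gave this transcript the lowest adjusted p of the trend (7.03e-07, slope -6.18), while its edgeR trend had an unadjusted p of 0.0081. ENSMMUT00000081547.1, 4546 bases long, was under 0.001 TPM in all small libraries, at 0.532, 0.456, 0.865 and 0.473 TPM in medium and at 0.361, 0.457, 0.0666 and 0.422 TPM in large libraries. Medium and large libraries just overlapped on TPM, at 0.456 against 0.457 TPM, and both lay above small. The contrast was 5.16 ± 0.67 (SE; edgeR adjusted p = 0.433, DESeq2 adjusted p = 2.08e-06). On CPM every medium library lay above every large one, at 1.87 against 1.64 CPM at the boundary. Medium minus large alone was 1.04 (edgeR unadjusted p = 0.148). Estimated counts of each of these 2 transcripts were whole in only 2 of 11 libraries, and the division of reads among similar transcripts was not tested.

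For medium lower, the 2 named transcripts were dips to 0. ENSMMUT00000030187.4, 3266 bases long, held 1, 1.16 and 1.65 TPM in small libraries, under 0.001 TPM in all 4 medium libraries, and 0.406, 0.321, 1.23 and 0.581 TPM in large libraries. ENSMMUT00000057534.2, 1946 bases long, held 1.58, 3 and 0.897 TPM in small, under 0.001 TPM in all 4 medium, and 1.21, 0.974, 1.34 and 0.0801 TPM in large libraries. For both, medium libraries lay below all small and large libraries, which overlapped each other. Against a floor of 3 counts summed over the medium libraries, the small and large means were at least 147-fold and 79.3-fold higher for the first and at least 121-fold and 63-fold higher for the second. The contrasts were -9.37 ± 1.06 (SE; edgeR adjusted p = 0.433, DESeq2 adjusted p = 1.25e-09) and -9.06 ± 1.38 (SE; edgeR adjusted p = 1, DESeq2 adjusted p = 5.04e-07). The counts of these transcripts were whole in only 3 and 4 of 11 libraries, and those were medium libraries at or near 0. How far the 0 values reflect the division of reads among similar transcripts was not tested.

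With counts in every library, changes around medium follicles were smaller. ENSMMUT00000045791.3, 1788 bases long and named after its values were seen, held 0.901, 1.52 and 0.97 TPM in small, 3.51, 3.17, 6.56 and 2.58 TPM in medium, and 1.1, 0.875, 1.32 and 2.56 TPM in large libraries. Medium libraries lay above all others, narrowly on TPM (2.58 against 2.56 TPM) and more widely on CPM (4.8 against 3.49 CPM). The contrast was 1.71 ± 0.38 (SE; edgeR unadjusted p = 0.000917, adjusted p = 1, DESeq2 adjusted p = 0.0106). ENSMMUT00000027862.4, 2217 bases long and likewise named afterwards, held 10.3, 6.92 and 10.5 TPM in small, 3.27, 5.29, 2.85 and 2.67 TPM in medium, and 11.6, 11.3, 7.54 and 5.33 TPM in large libraries. Medium libraries lay below all small ones and, at 5.29 against 5.33 TPM, just below all large ones on TPM, and on CPM large replicate 4, at 9.22 CPM, was below medium replicate 2, at 10.1 CPM. The contrast was -1.32 ± 0.3 (SE; edgeR unadjusted p = 0.00126, adjusted p = 1, DESeq2 adjusted p = 0.0114).

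**Figure D4:**
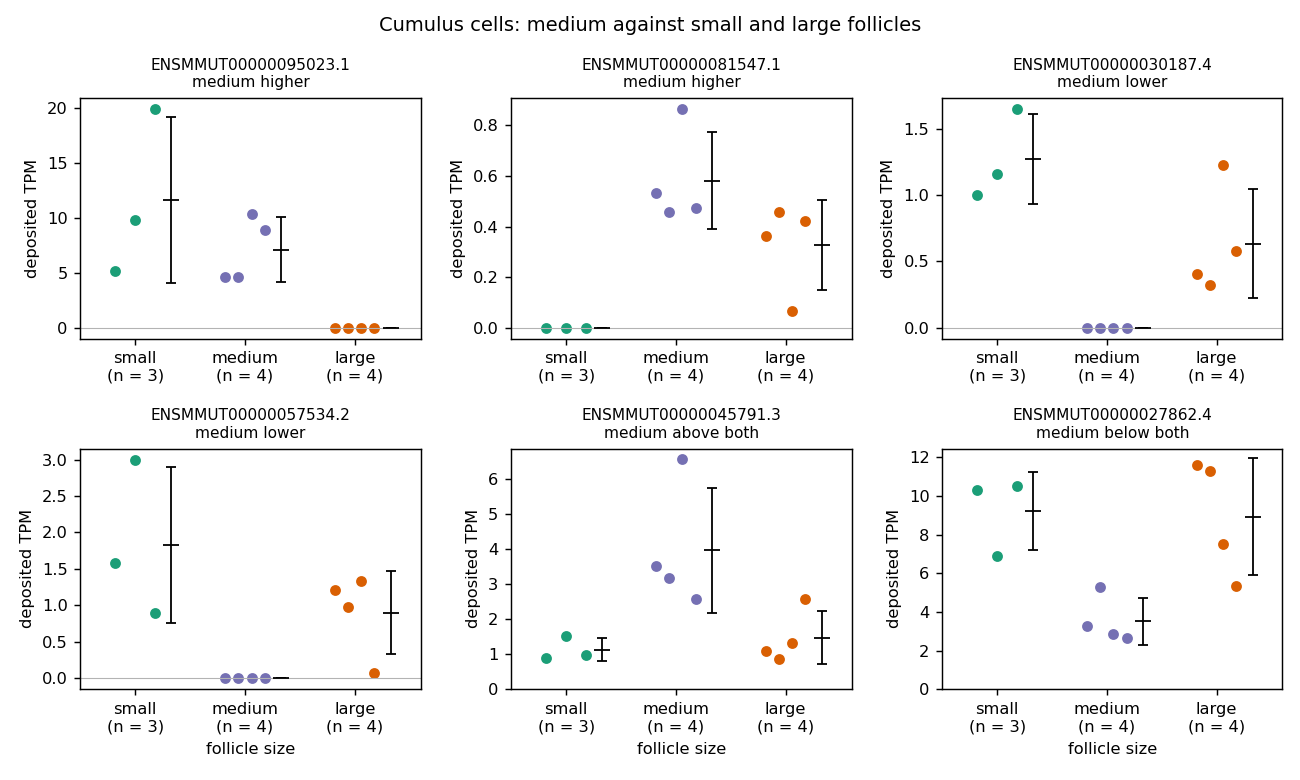
Deposited TPM by follicle size of the 4 transcripts of smallest p for medium higher or lower, and of 2 transcripts with counts in every library that lay above or below both other sizes in medium follicles. Points are cumulus libraries and bars are mean ± SD; the upper left pair is absent in large or in small follicles, while ENSMMUT00000045791.3 was at 2.58 TPM or more in medium and at 2.56 TPM or less elsewhere.

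By the order of libraries alone, every medium library lay above all small and large ones for 57 transcripts on CPM (0.179%) and for 31 on TPM (0.0973%). Every medium library lay below all others for 80 on CPM (0.251%) and 95 on TPM (0.298%). The most abundant of the 57, 3748 bases long, held 22.5, 22.4 and 18.5 TPM in small, 29.6, 34.5, 29.1 and 22.9 TPM in medium, and 24.2, 28.3, 22.1 and 24.7 TPM in large libraries. That order held on CPM but not on TPM, where medium replicate 4 fell among the large libraries. The most abundant of the 80, 216 bases long, held 117, 128 and 127 TPM in small, 72.5, 64.2, 83.1 and 39.3 TPM in medium, and 122, 175, 72.8 and 144 TPM in large libraries, and here large replicate 3 overlapped the medium libraries on TPM. For both transcripts the separation of the medium libraries thus depended on the scaling.

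Presence and absence between sizes was rare. Of all 49537 transcripts, 32 (0.0646%) had at least 10 counts in every small library and 0 in every large one, and 25 (0.0505%) the reverse. Between small and medium, 27 (0.0545%) were present in small alone and 32 (0.0646%) in medium alone. Between medium and large, 12 (0.0242%) were present in medium alone and 8 (0.0161%) in large alone.

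The slopes of cumulus cells were then compared with those of granulosa cells, fitted on other libraries. A test of the difference in slope passed 0 of 34521 transcripts in edgeR (0%, lowest adjusted p 0.607, 1228 or 3.56% at an unadjusted p under 0.05), and DESeq2 passed 104 of 33925 (0.307%). Across the 27843 transcripts tested in both cell types, slopes had the same sign in 56%, with Pearson r = 0.03 and Spearman rho = 0.104. Over the 3270 of these at 10 TPM or more in cumulus cells, the sign was the same in 65.8% (r = 0.099, rho = 0.193). Their median slope was positive in both cell types, at 0.069 in cumulus and 0.061 in granulosa cells. With the library number as a block in the granulosa libraries, where it pairs libraries (12 of 12 pairs with r over 0.1), edgeR again passed 0 (lowest adjusted p 0.817). The r and rho of slopes are correlations across transcripts, which are not independent replicates, and transcripts of 1 gene share reads. Of the 472 transcripts with a positive slope at an unadjusted p under 0.05 that were tested in granulosa cells, 51.3% had a positive slope there too. Over all transcripts with a positive cumulus slope this share was 54.8%. For the 281 with a negative slope the share with the same sign was 61.9%, against 57.2% over all with a negative cumulus slope.

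Against oocytes, the difference in slope passed 0 of 36437 transcripts in edgeR (0%, 2017 or 5.54% at an unadjusted p under 0.05) and 301 of 33765 in DESeq2 (0.891%). The lowest adjusted p of edgeR was 0.0529, shared by 3 transcripts: ENSMMUT00000015746.4, whose cumulus slope exceeded that in oocytes by 12 log2 units per step, and ENSMMUT00000038819.3 and ENSMMUT00000017732.4 with differences of -4.40 and -5.61. With the library number as a block within each cell type edgeR passed 28, among them ENSMMUT00000015746.4 (10.6 log2 units, edgeR adjusted p = 0.0362), and with the block in the oocyte libraries alone it passed 8 (10.76 for this transcript, edgeR adjusted p = 0.018). Same-numbered oocyte libraries of different sizes deviated together in part (r of 0.028 to 0.263 over 12 pairs, 9 of them over 0.1). In oocytes ENSMMUT00000015746.4 was at 0.745 and 0.565 TPM in small replicates 1 and 3 and under 0.001 TPM in the other 10 libraries, the opposite end of the size range from cumulus cells. In granulosa cells it ranged from under 0.001 to 0.798 TPM with no separation of sizes, with a slope of -0.08 (edgeR adjusted p = 1). The difference of its slope from granulosa cells was 5.85 log2 units (edgeR adjusted p = 0.607). Over all 25574 transcripts tested in both cumulus cells and oocytes the slopes had the same sign in 50.3% (Pearson r = 0.014).

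The remaining trend transcripts also had other levels in the other cell types. ENSMMUT00000088801.1 was spread over all sizes in granulosa cells (median 0.635 TPM, highest 2.96) and in oocytes (median 1 TPM, highest 2.78) with no separation of sizes. The difference of its cumulus slope did not pass the test against granulosa cells (4.70 log2 units per step, edgeR adjusted p = 0.915) or oocytes (5.89, edgeR adjusted p = 0.211). ENSMMUT00000097921.1 had a median of 0.382 TPM in granulosa cells, and of 0.931 TPM in oocytes. The 3 granulosa libraries that carry the number 1 held 6.26, 10.7 and 16.4 TPM in small, medium and large follicles, and the other 9 held 0.0219 to 2.65 TPM. The differences of its cumulus slope from those of granulosa cells and oocytes, -1.52 and -0.40 log2 units per step, did not pass the test (edgeR adjusted p = 1 for each). The first was -2.71 without granulosa small replicate 1 and -0.43 without granulosa large replicate 1.

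**Figure D5:**
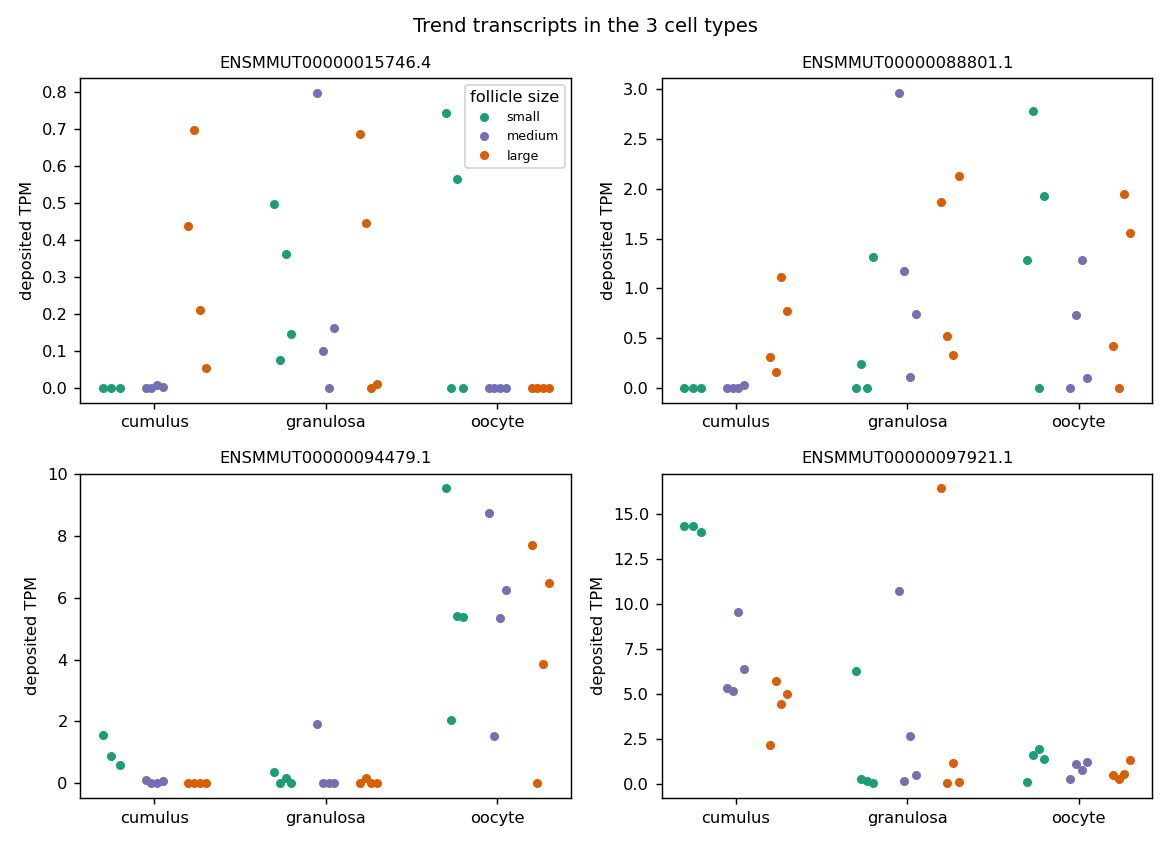
Deposited TPM of the 4 trend transcripts in cumulus cells, granulosa cells and oocytes, each point a library coloured by follicle size. ENSMMUT00000094479.1 had a median of 5.39 TPM over the 12 oocyte libraries, and ENSMMUT00000097921.1 was at 14 to 14.3 TPM in the small cumulus libraries and at 16.4 TPM in its highest granulosa library.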

How the data were processed

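The submitters' processing notes name bcl2fastq 2.19.1 and, for quantification, kallisto 0.44.0. The genome build and annotation were not given in the sources used here. The deposited estimated counts (a read that fits several transcripts is divided among them) were rounded to whole numbers and tested. The deposited TPM values, per the file headers scaled for length and library total, were used to show levels and were not tested. Of 49537 IDs, 0 matched either table of gene names, so gene and marker lists could not be tested and no sequence is shown.

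Tests used edgeR 4.0.16 in R 4.3.3 (robust quasi-likelihood fit, TMM, a filter by group with a minimum count of 10, Benjamini-Hochberg over all tested transcripts, threshold 0.05) on the 11 cumulus libraries, or on 23 libraries for differences between cell types. limma 3.58.1 and DESeq2 1.42.0 were alternatives, with other scalings, filters, covariates and subsets. CPM uses the TMM factors of the cumulus fit. Estimated counts are called whole within 1e-06. Library measures were tested by exact permutation. Named transcripts are the 2 of smallest p in each direction with a mean of at least 10 counts in the higher group. The comparison, the members and all lists were chosen with earlier results of these data known. Libraries of a size differed beyond counting noise (chi-square per degree of freedom 70.3 to 241 over 15 pairs), and none was left out or merged. Deviations of same-numbered libraries from their group means (12 pairs, r from 0.12 to 0.43) show that the number pairs granulosa libraries; cumulus libraries were not paired by it. The tests were also run on simulated counts with known changes, but the outcome is not given and no result here rests on it.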

Additional observations from a re-analysis of the deposited data

Results flagged for a closer look

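In 35 groups of 4 libraries, the highest or lowest library was set against the others of its group by Dixon's test, which marks about 1 in 20 groups by chance. It marked 4. The share of counts from oocyte-predominant transcripts was 0.469% in large replicate 3, against 0.0567% to 0.0644% in the other large cumulus libraries, and 0.403% in medium replicate 2, against 0.0436% to 0.0535% in the other medium ones. ENSMMUT00000088801.1 stood at 0.0278 TPM in medium replicate 4 and under 0.001 TPM in the other medium libraries. ENSMMUT00000095023.1 stood at 0.0127 TPM in large replicate 1 and under 0.001 TPM in the other large libraries.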

How the results depend on the processing

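Below 1 TPM, 14.5% of slopes were bounded within 2-fold per step, and the part of depth in this was not tested. DESeq2 passed 49 transcripts for the trend (16 up, 33 down, of which 28 had 3 or more libraries at 0), 157 for medium follicles, 104 for the difference from granulosa cells and 301 for that from oocytes. limma, DESeq2-type size factors, no filter on low counts, whole counts only, the oocyte share as a covariate and large against small alone gave 0 for the trend and for medium follicles where tried. A single fit of all 35 libraries gave 1 for the trend (ENSMMUT00000038819.3, slope -3.59, edgeR adjusted p = 0.0213). Leaving out 1 library gave 0 to 2: without medium replicate 3, ENSMMUT00000004803.4 (slope -6.04, edgeR adjusted p = 0.00641) and ENSMMUT00000094632.1 (7.76, edgeR adjusted p = 0.00124) passed. The latter also passed for the difference from granulosa cells (12.74, edgeR adjusted p = 0.0414), where leaving out 1 library gave 0 to 1. For medium follicles it gave 0 to 0. Leaving out the 4 libraries of high oocyte share left only 1 small library, and ENSMMUT00000081314.1 then had a medium contrast of 7.76. Over all 11 libraries its TPM was 6.24e-06 to 10.8 in small, 8.62 to 13.6 in medium and 6.39 to 10.1 in large follicles. The difference from oocytes gave 0 to 16 when 1 library was left out, most without cumulus small replicate 3 (16), large replicate 3 (10), large replicate 4 (7) and small replicate 1 (5). It gave 1 or 2 without cumulus small replicate 2, medium replicates 1, 3 and 4, large replicate 2, oocyte small replicates 2 and 4 and oocyte large replicate 2. ENSMMUT00000015746.4 was among the calls in 5 of these. These transcripts outside the named ones were chosen after their values were seen. The cause of these differences was not tested.

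With the replicate number as a block, 0 transcripts passed for the trend, 0 for medium follicles, 0 for the difference from granulosa cells and 28 for that from oocytes (15 up, 13 down). With the block in the granulosa or the oocyte libraries alone, added after seeing the data, 0 and 8 passed (5 up, 3 down). Same-numbered cumulus libraries did not deviate together (10 pairs, r from -0.139 to 0.11, and 3 of 11 libraries correlated best with their own number). Same-numbered granulosa libraries did (12 pairs, r from 0.12 to 0.43, 11 of 12 best with their own number), and for oocytes 9 of 12 pairs were over 0.1 and 12 of 12 libraries correlated best with their own number, a hint from the data and not from the design. The block changed no other call among the named transcripts.

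At an unadjusted edgeR p under 0.05, leaving out 1 library gave 363 (without large replicate 1) to 782 (without small replicate 1) positive and 303 (without small replicate 2) to 679 (without small replicate 1) negative slopes, and no filter gave 1624 and 1259, against 545 and 356. For medium follicles, no filter gave 1392 higher and leaving out small replicate 2 gave 1007, against 610, and the block gave 383 and 363. Ordered libraries on TPM in place of CPM numbered 1 rising, a transcript other than that on CPM, 1 falling and 31 with medium above all. Medium different from both other sizes left 38 higher and 222 lower. Both kinds of count were added after seeing the data. Leaving out 1 library gave slopes of -261000 to 897000 for total counts (-129000 without small replicate 2, -261000 without small replicate 3 and -114000 without large replicate 3, against 264000), of -191 to 114 for detected transcripts (114 without small replicate 2, against -74.6), and of -2.63 to -1.63 points for the top transcript.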
